A study of Homo sapiens with 6 samples.

Results

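The 10 genes described here encode factors of the naive and formative stages of pluripotency: PRDM14, ZFP42, UTF1, TFCP2L1, TBX3, SALL4, L1TD1, FOXD3, OTX2 and POU3F1. They were taken by gene symbol from a count table of 48183 gene names, and each symbol stood for 1 Ensembl identifier. The table was made from 6 bulk RNA-seq libraries of human embryonic stem (ES) cells, 4 of induced naive cells and 2 of primed cells. All 10 genes differed between the states beyond the spread between libraries, as did 53.1% of all gene names tested. Of the 10, 5 were higher in naive cells and 5 were lower, against 26% and 27% of all names tested.

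Naive cells resemble the epiblast of the blastocyst before implantation, primed cells resemble the epiblast after implantation, and the formative state lies between them, when cells leave naive pluripotency and become able to enter the germ layers. TFCP2L1, TBX3, ZFP42 and PRDM14 belong to the factors used to describe the naive network, whereas OTX2, POU3F1 and FOXD3 are known for their part in the exit from it, mostly from work in mouse cells. SALL4 and UTF1 are general factors of undifferentiated cells. L1TD1 is an RNA-binding protein derived from a LINE-1 transposon and is not a DNA-binding transcription factor, although it is expressed with them in ES cells.

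All cells carried EOS, a GFP reporter driven by the distal enhancer of OCT4 and kept as a drug-selected pool. The labels name the parental line H1, whereas the study's text names H9, and which is right was not settled here. Both AICAR libraries (AICAR activates the kinase AMPK) and the VPA library (VPA, valproic acid, inhibits histone deacetylases) came from EOS cells. The CA-p38 library came from a CA-p38 EOS line, in which doxycycline (DOX) switches on a constitutively active form of the kinase p38. After induction, the study grew naive cells mainly in PXGL, a medium with inhibitors of MEK, tankyrase and PKC plus LIF. It describes PXGL culture on Matrigel with mouse feeder cells and also without feeders, the latter for CA-p38 cells among others. Its text does not say which was used for each library. The naive cells were sorted for the surface proteins CD75 and SUSD2. The primed libraries were EOS cells and CA-p38 EOS cells without naive induction, grown in StemFit AK02N on Matrigel with no feeders. They were not sorted for CD75 and SUSD2. When the CA-p38 EOS line was made, however, DOX was given and cells with the mCherry marker of its construct were sorted. State, medium and sorting therefore changed together, as did feeders wherever the naive cells had them, and these cannot be told apart. In bulk RNA, a smaller share of cells that express a gene and less RNA per cell cannot be told apart either.

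The libraries held 46823699 to 54277064 counts on genes. The 6 naive markers used as a check (DPPA5, DPPA3, SUSD2, ALPG, KHDC3L and DNMT3L) summed to between 4867 and 5706 CPM (counts scaled by library size, with TMM factors) in naive libraries and to between 2.92 and 6.50 CPM in primed libraries. The 6 primed markers (SFRP2, THY1, CD24, DUSP6, ZIC2 and PODXL) summed to between 84.3 and 99.1 CPM in naive libraries and to between 3275 and 3869 CPM in primed libraries. Each of these 12 markers passed the test in the direction of its name, so the state labels and the RNA went together, although SUSD2 was also used to sort the naive cells.

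The difference between states was broad. Of 26497 gene names tested with edgeR, 53.1% passed an adjusted p of 0.05, 26% as higher in naive cells and 27% as lower. For 32.9% of them every naive library was above both primed libraries, and for 32.1% every naive library was below both. The 10 factors, all past the threshold, are to be read against those shares. The median log2 fold change over all names tested was 0.11, and the median of their absolute values was 0.85. The factors higher in naive cells had a median of 5.45, and those lower had a median of -1.43.

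Sequences upstream of the start site are shown for 4 of the factors, ZFP42 and TFCP2L1 among those that rose and L1TD1 and POU3F1 among those that fell, so that factors moving in either direction can be set side by side. They are RefSeq sequences on GRCh38.p14, 250 bases ending at the base before the start site, read 5′ to 3′ on the strand of the gene. Capitals mark matches on either strand to the KLF motif CACCC or to the TFCP2L1 motif, which is CCAG and CCNG separated by 6 bases.
ZFP42, chr4:187995521-187995770, plus strand: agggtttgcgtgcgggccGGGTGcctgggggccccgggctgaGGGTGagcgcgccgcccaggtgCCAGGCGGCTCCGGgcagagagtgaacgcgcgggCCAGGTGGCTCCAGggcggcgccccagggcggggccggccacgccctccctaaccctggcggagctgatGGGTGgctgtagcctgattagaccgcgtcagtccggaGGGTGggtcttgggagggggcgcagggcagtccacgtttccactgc
TFCP2L1, chr2:121285203-121285452, minus strand: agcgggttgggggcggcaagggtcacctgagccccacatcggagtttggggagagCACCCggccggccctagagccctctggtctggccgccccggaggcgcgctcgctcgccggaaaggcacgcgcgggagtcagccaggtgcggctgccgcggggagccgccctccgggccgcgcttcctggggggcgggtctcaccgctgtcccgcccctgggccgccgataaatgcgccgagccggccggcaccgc
L1TD1, chr1:62194599-62194848, plus strand: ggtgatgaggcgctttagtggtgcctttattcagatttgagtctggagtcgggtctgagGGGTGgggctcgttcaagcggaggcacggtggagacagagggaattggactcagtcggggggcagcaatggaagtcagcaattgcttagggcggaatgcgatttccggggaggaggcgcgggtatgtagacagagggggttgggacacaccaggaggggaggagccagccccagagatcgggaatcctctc
POU3F1, chr1:38046794-38047043, minus strand: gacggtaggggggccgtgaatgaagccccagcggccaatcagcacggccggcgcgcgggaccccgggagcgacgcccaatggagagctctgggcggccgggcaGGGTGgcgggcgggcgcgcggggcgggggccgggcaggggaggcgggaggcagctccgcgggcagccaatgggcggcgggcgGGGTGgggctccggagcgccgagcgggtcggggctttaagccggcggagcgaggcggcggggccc

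The RefSeq table held a promoter of 300 bases, from 250 before to 50 after the start, for 7 of the 10 factors. PRDM14, SALL4 and TBX3 were not matched. The OTX2 promoter belonged to a start inside the gene: its upstream bases, chr14:56810480-56810729, lie within the gene span given below and not at its 5′ end. The TFCP2L1 motif, held by 13.8% of the 27305 promoters in the table, had 2 matches upstream of ZFP42, at positions -186 to -173 and -152 to -139 from the start, and 1 match in UTF1, at 19 to 32 bases after it. None of the 4 falling factors with a promoter held it. The KLF motif occurred in 58.9% of all promoters and in those of ZFP42, TFCP2L1, L1TD1, FOXD3 and POU3F1. No match was found in the 7 promoters to the motifs of OTX2 (TAATCC), the POU octamer (ATGCAAAT), TBX3 (GGTGTGA), forkhead proteins (GTAAACA), PRDM14 (GGTCTCTAA) or ZFP42 and YY1 (AAGATGGC), which says only that these letters are not in these windows. CpG dinucleotides numbered 49 in the promoter of POU3F1, 43 in TFCP2L1, 39 in UTF1, 29 in FOXD3, 24 in ZFP42, 14 in L1TD1 and 9 in OTX2, with a median of 14 over the table. Promoters rich in CpG were thus found among risers and fallers alike.

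ZFP42, also called REX1, is a zinc finger protein of the YY1 family and a long-used marker of undifferentiated cells. Its gene lies on chromosome 4 (GRCh38, 187995771 to 188005046, plus strand, 4 exons). ZFP42 stood at 301 and 289 CPM in the AICAR libraries, 284 in the CA-p38 library and 229 in the VPA library, and at 0.707 and 0.695 CPM in the primed EOS and primed CA-p38 EOS libraries, where 35 and 34 reads were counted. The primed libraries were nearly identical and far below every naive library, and VPA was the lowest of the naive libraries. The fitted log2 fold change was 8.62 (SE 0.20; edgeR adjusted p = 1.17e-11), a fold of 394 between the means. This put ZFP42 at the 99.5th percentile of all fold changes and made it the factor with the widest difference between states.

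TBX3 is a T-box repressor of the naive network, on chromosome 12 (114670255 to 114684175, minus strand, 7 exons). It stood at 28.75 and 31.1 CPM in the AICAR libraries, 24.5 in CA-p38 and 18.8 in VPA, and at 0.0606 CPM in primed EOS cells and 0.470 CPM in the primed CA-p38 EOS cells, from 3 and 23 reads. No naive library came near the primed ones, but the primed libraries differed from each other by 7.76 times. The log2 fold change was 6.59 (SE 0.46; edgeR adjusted p = 9.82e-08), and it became 5.76 when primed EOS was left out and 8.68 when primed CA-p38 EOS was. Fits without 1 of the primed libraries, here and for the factors below, have a single primed library, which is assumed to vary as the naive libraries do. A filter of 10 counts in every library removed TBX3 from the test.

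UTF1, a chromatin-associated factor of undifferentiated cells, is a short gene on chromosome 10 (133230217 to 133231558, plus strand, 2 exons). It was at 195 and 189 CPM in the AICAR libraries, 187 in the CA-p38 library and 208 in the VPA library, against 6.12 CPM in primed EOS cells and 2.80 CPM in the primed CA-p38 EOS cells. The naive libraries lay close together, with a coefficient of variation of 4.81%, and here VPA was the highest of them. The log2 fold change was 5.45 (SE 0.26; edgeR adjusted p = 3.08e-09), 6.11 without primed EOS and 4.998 without primed CA-p38 EOS.

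TFCP2L1, a CP2-family factor and a mainstay of the naive network, spans chromosome 2 from 121216587 to 121285202 on the minus strand with 15 exons. Its levels were 123 and 125 CPM in the AICAR libraries, 126 in CA-p38 and 103 in VPA, and 4.93 and 4.72 CPM in the primed libraries. Both states were tight, and the groups lay far apart. The log2 fold change of 4.63 (SE 0.15; edgeR adjusted p = 1.25e-10) moved only between 4.58 and 4.68 when any 1 library was left out.

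PRDM14, a PR-domain zinc finger protein that represses differentiation genes, is on the minus strand of chromosome 8. It was at 181 and 170.3 CPM in the AICAR libraries, 178 in CA-p38 and 146 in VPA, and at 27.4 CPM in primed EOS cells and 48.8 CPM in the primed CA-p38 EOS cells. Of the 5 factors that rose, PRDM14 was the one with the highest level per kilobase in primed cells. Its log2 fold change was 2.15 (SE 0.20; edgeR adjusted p = 1.41e-06), and it ran from 1.78 without primed EOS to 2.63 without primed CA-p38 EOS. CBFA2T2, the corepressor that PRDM14 binds, rose with it, from 28 ± 1.99 CPM (SD, n = 2) in primed libraries to 312 ± 15.6 CPM (SD, n = 4) in naive libraries (log2 fold change 3.48, SE 0.12; edgeR adjusted p = 1.55e-10).

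**Figure D1:**
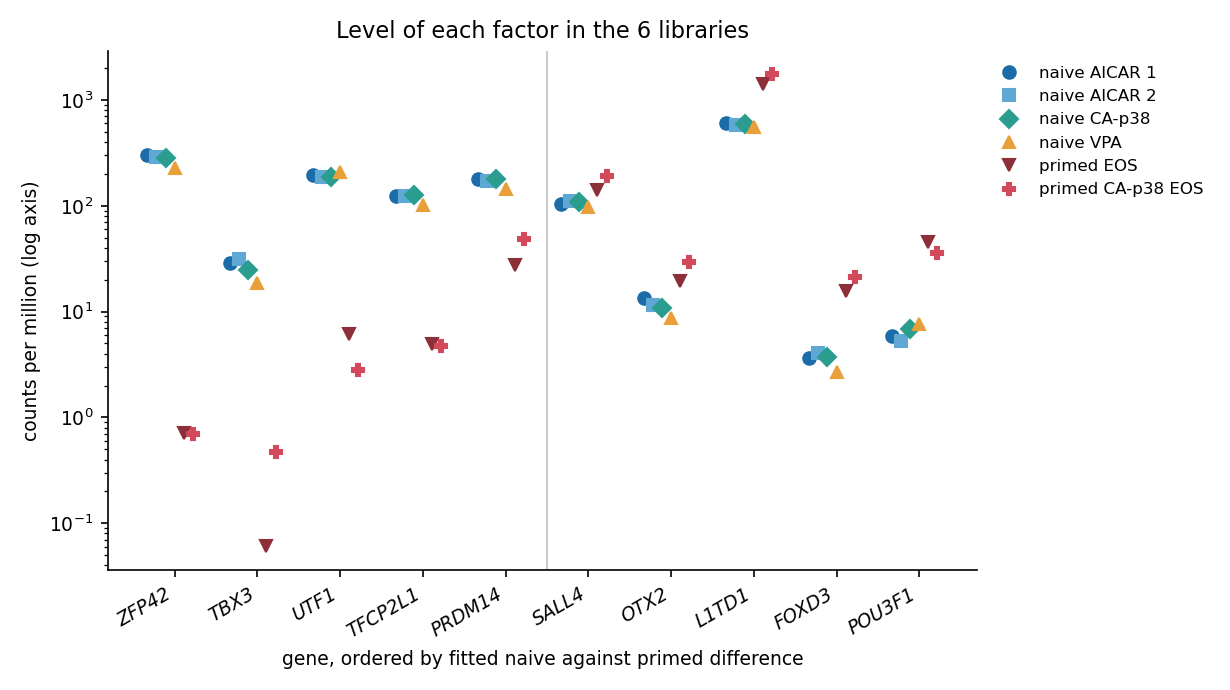
CPM on a log axis for the 10 factors, with 1 point for each of the 4 naive and 2 primed libraries; the grey line separates the 5 factors higher in naive cells from the 5 that were lower. In no factor did the naive and primed points overlap, and the primed points of TBX3 differ most from each other (0.0606 and 0.470 CPM).

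POU3F1, also called OCT6, is a POU-domain factor of the formative stage and of early neural cells, encoded by a single exon on chromosome 1 (38043829 to 38046793, minus strand). It had 5.87 and 5.23 CPM in the AICAR libraries, 6.92 in the CA-p38 library and 7.64 in the VPA library, against 45.6 CPM in primed EOS cells and 35.8 CPM in the primed CA-p38 EOS cells. Every naive library was below both primed ones, and VPA was the highest of the naive libraries. POU3F1 fell by 2.66 on the log2 scale (SE 0.18; edgeR adjusted p = 5.28e-08), the steepest fall of the 10. Of the neural markers measured, PAX6 and SOX1 reached at most 1.68 CPM in any of the 6 libraries and did not pass the test, whereas NES, DCX and MAP2 fell; their part in the value of POU3F1 was not tested.

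FOXD3, a forkhead repressor, is also encoded by 1 exon on chromosome 1 (63322567 to 63325128, plus strand). Its levels were 3.64 and 4.085 CPM in the AICAR libraries, 3.70 in CA-p38 and 2.67 in VPA, and 15.8 and 21.3 CPM in the primed libraries. Per kilobase FOXD3 was the lowest of the 10 in naive cells, with 140 reads in VPA and 203 in AICAR 2. It fell by 2.40 on the log2 scale (SE 0.22; edgeR adjusted p = 9.40e-07).

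OTX2 is a homeodomain factor that drives the exit from naive pluripotency and later patterns the forebrain, on chromosome 14 (56799905 to 56816693, minus strand, 5 exons). It was measured at 13.3 and 11.5 CPM in the AICAR libraries, 10.9 in CA-p38 and 8.76 in VPA, and at 19.3 CPM in primed EOS cells and 29.7 CPM in the primed CA-p38 EOS cells. The gap between the highest naive and the lowest primed library was narrow, and both groups were spread. OTX2 fell by 1.14 on the log2 scale (SE 0.20; edgeR adjusted p = 0.000391). Without primed EOS the value was -1.43, and without primed CA-p38 EOS it was -0.79 with an edgeR adjusted p of 0.0203, the highest among the fits run for any of the 10, with the spread then taken from the naive libraries alone.

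L1TD1 lies on chromosome 1 (62194849 to 62212328, plus strand, 4 exons) and gave the most reads of the 10 in every library. It had 607 and 576 CPM in the AICAR libraries, 596 in CA-p38 and 559 in VPA, and 1407 and 1749 CPM in the primed libraries. The naive libraries agreed to a coefficient of variation of 3.59%, the smallest of the 10. L1TD1 fell by 1.43 on the log2 scale (SE 0.096; edgeR adjusted p = 6.31e-08) and was still, per kilobase, between the 97.4th and the 97.8th percentile of protein-coding genes in the naive libraries. LIN28A, an RNA-binding protein known to associate with L1TD1, fell as well, from 1160 ± 167 CPM (SD, n = 2) to 349.8 ± 30.7 CPM (SD, n = 4), with a log2 fold change of -1.73 (SE 0.11; edgeR adjusted p = 2.99e-08).

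SALL4, a spalt-family zinc finger protein that works with OCT4 and NANOG, is on chromosome 20 (51782331 to 51802521, minus strand, 4 exons). Its levels were 104 and 112 CPM in the AICAR libraries, 109 in the CA-p38 library and 98.3 in the VPA library, against 143 and 192 CPM in the primed libraries. The difference was the smallest of the 10, a fall by 0.66 on the log2 scale (SE 0.12; edgeR adjusted p = 0.000523), smaller than the median absolute change over all names tested. It was -0.87 without primed EOS and -0.42 without primed CA-p38 EOS (edgeR adjusted p = 0.0199, again with the spread of the naive libraries alone).

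**Figure D2:**
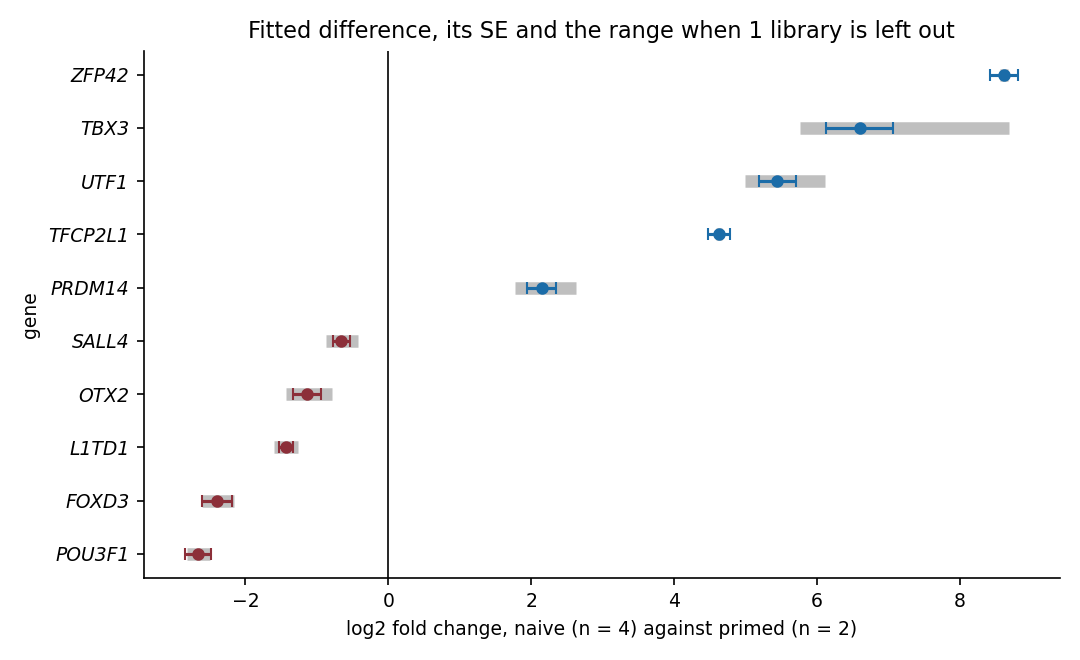
Fitted log2 fold change of each factor, naive (n = 4) against primed (n = 2), as a point with its SE; the grey bar spans the values when each of the 6 libraries was left out in turn. The bar is widest for TBX3, from 5.76 to 8.68, and reaches 0 for no factor.

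Because the CA-p38 cells had their own primed line, each induced library was also set against the primed library of its line, as a log2 difference with a 95% interval that covers counting error only. All 40 differences had the direction of the fit, with intervals that left out 0. For PRDM14 the differences were 2.72 (2.64 to 2.81) and 2.64 (2.55 to 2.72) in the AICAR libraries, 2.41 (2.33 to 2.496) in VPA and 1.87 (1.80 to 1.94) in CA-p38. UTF1 went the other way, with 4.99 (4.83 to 5.17) and 4.95 (4.78 to 5.12) in AICAR, 5.08 (4.92 to 5.25) in VPA and 6.05 (5.82 to 6.31) in CA-p38. In 8 of the 10 factors the CA-p38 library lay outside the range of the other naive libraries on this measure. Its own CPM lay outside their range only for UTF1, where it was lowest, and TFCP2L1, where it was highest. The other naive libraries share primed EOS as their reference, whereas CA-p38 has a different one. The share of all names outside the range was not computed for either measure.

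The primed lines differed from each other in 8 of the 10 factors by more than counting error, and 6 of the 10 were higher in primed CA-p38 EOS. Of the 12603 names with a mean of at least 5 CPM, 66.8% differed between the primed lines by more than counting error and 62.7% were higher in primed CA-p38 EOS, so both counts are close to those of other genes. The log2 difference of primed CA-p38 EOS from primed EOS was 2.76 (1.23 to 5.33) for TBX3, 0.83 (0.74 to 0.93) for PRDM14 and 0.62 (0.51 to 0.74) for OTX2. It was -1.13 (-1.43 to -0.83) for UTF1 and -0.35 (-0.44 to -0.26) for POU3F1. ZFP42, at -0.02 (-0.75 to 0.70), and TFCP2L1, at -0.06 (-0.33 to 0.20), had intervals that held 0. Hypoblast and mesendoderm markers moved with this contrast: FOXA2 was at 5.35 CPM in EOS and 21.4 CPM in CA-p38 EOS primed cells, and EOMES was at 1.21 and 7.42 CPM. Each line had 1 primed library, so lines and libraries cannot be told apart. The earlier DOX treatment and mCherry sorting of the CA-p38 EOS line cannot be told apart from them either.

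**Figure D3:**
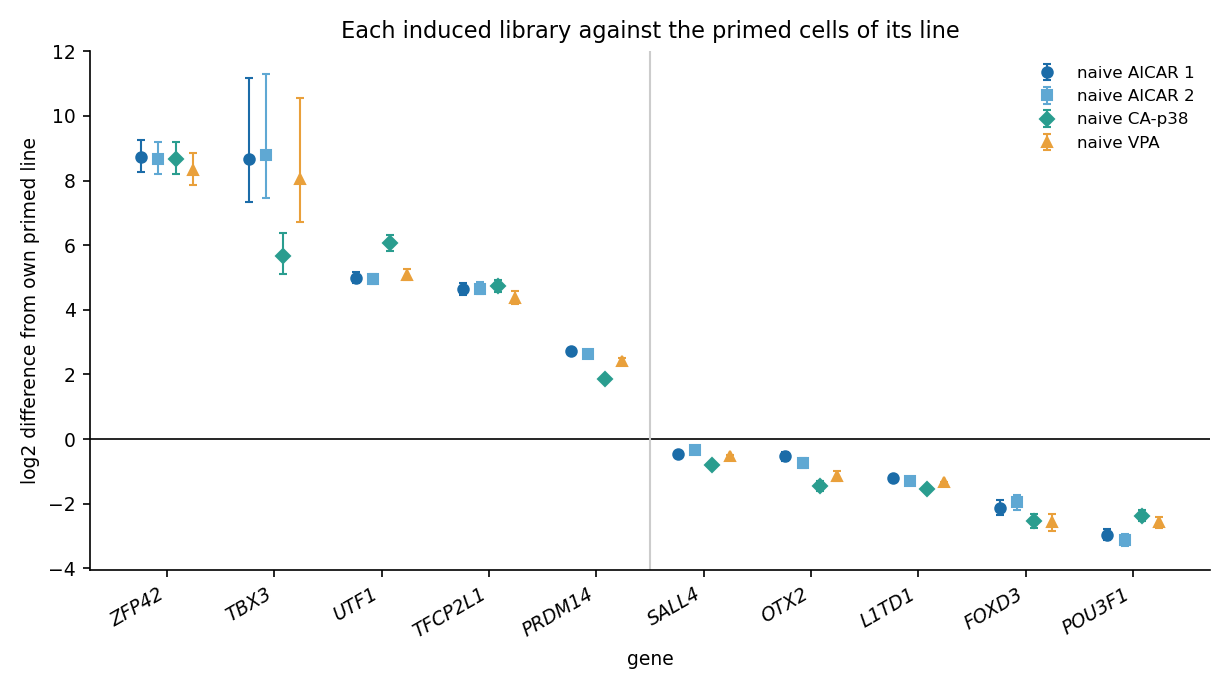
Log2 difference of each of the 4 naive libraries from the primed library of its own line, with 95% intervals for counting error. The CA-p38 library stands below the others for TBX3 and PRDM14 and above them for UTF1, and the intervals of TBX3 are wide because primed EOS held 3 reads.

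Among the naive libraries, the AICAR pair differed by at most 0.21 on the log2 scale in any factor. The pair still differed by more than counting error in 7 of the 10 factors, and the share over all names was not computed. VPA was the lowest naive library for 8 of the 10 factors and the highest for UTF1 and POU3F1. Over the names with a mean of at least 5 CPM, VPA was lowest in 30.3% and highest in 26.2%. The VPA library was lowest for 4 factors that rose and for 4 that fell, so its rank did not follow the direction of the naive change. The highest naive library exceeded the lowest by 1.08 times for L1TD1 and by 1.66 times for TBX3, the extremes of the 10. VPA rests on 1 library, and no test of induction methods could be made. Days of induction also differed between the methods, and the AICAR libraries were of later passages than the others.

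Levels of different genes were compared as CPM per kilobase of the canonical transcript. In naive cells UTF1 was highest at 160.3 ± 7.70 (SD, n = 4), and its libraries overlapped those of L1TD1 at 153 ± 5.47. ZFP42 followed at 104 ± 12.0, PRDM14 at 74.3 ± 7.06, SALL4 at 20.4 ± 1.17, TFCP2L1 at 12.8 ± 1.20 and TBX3 at 5.45 ± 1.15. The last places went to OTX2 at 3.69 ± 0.627, which overlapped TBX3, POU3F1 at 2.16 ± 0.362 and FOXD3 at 1.38 ± 0.235. TFCP2L1 and TBX3 thus stood well below UTF1 and L1TD1, and the formative factors were lowest.

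In primed cells the order per kilobase was L1TD1 at 412 ± 63.1 (SD, n = 2), then SALL4 at 32.1 ± 6.70, PRDM14 at 16.8 ± 6.68 and POU3F1 at 13.7 ± 2.34, the last of which PRDM14 overlapped. OTX2 at 8.13 ± 2.45 overlapped FOXD3 at 7.25 ± 1.51. Below them came UTF1 at 3.67 ± 1.93, TFCP2L1 at 0.519 ± 0.0158, ZFP42 at 0.265 ± 0.00322 and TBX3 at 0.0561 ± 0.0612. POU3F1 moved from the fourth place to the ninth between the states, and UTF1 from the seventh to the first.

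**Figure D4:**
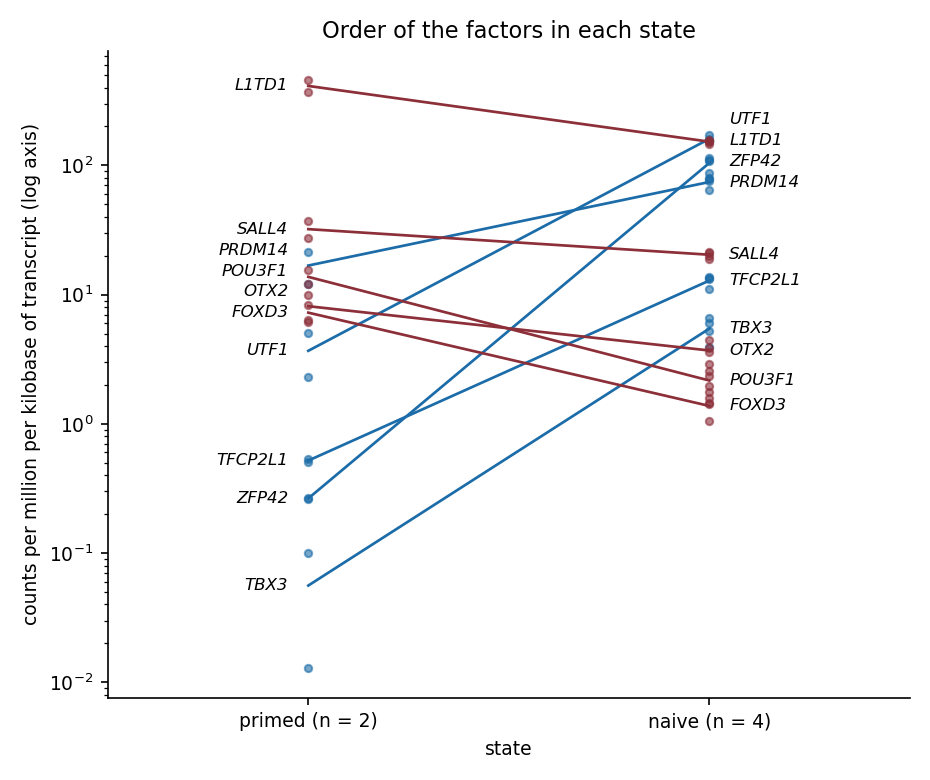
Mean CPM per kilobase of transcript in primed (left) and naive (right) cells on a log axis, with points for single libraries; blue lines rise and red lines fall from primed to naive cells. Gene names are spread slightly to be legible. The lines of UTF1, ZFP42 and TBX3 are the steepest, and L1TD1 stays near the top in both states (412 and 153).

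Some features share position or sequence with the factors. FOXD3-AS1, on the opposite strand and overlapping FOXD3, had 3.20 and 3.44 CPM in the AICAR libraries, 4.06 in the CA-p38 library and 3.57 in the VPA library, against 43.1 and 32.8 CPM in the primed libraries. It fell with FOXD3, by 3.41 on the log2 scale (SE 0.17; edgeR adjusted p = 3.56e-09), and the sources used here do not say whether reads were counted by strand, so reads of FOXD3 and FOXD3-AS1 may not be fully separate. OTX2-AS1 rose while OTX2 fell, from 25 and 11 reads in the primed libraries to between 42 and 64 in the naive libraries (log2 fold change 1.60, SE 0.49; edgeR adjusted p = 0.0150). Of the 5 SALL4 pseudogenes in the table none exceeded 0.838 CPM in any library, far under SALL4 itself.

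Of the 20 protein-coding neighbours, the nearest tested gene on each side of each factor, 15 passed the threshold, against 53.1% of all names. Of these, 6 went in the direction of the factor and 9 against it. Their distances from the factors ran from 3.8 to 1274 kb, so many neighbours were not adjacent. UTF1 had VENTX, a homeobox gene 6.30 kb away, which rose from 5.59 to 102 CPM (log2 fold change 4.19, SE 0.14; edgeR adjusted p = 1.31e-10), and ZFP42 had TRIML2, 86.2 kb away, which rose from 37.3 to 313 CPM. TFCP2L1 had GLI2, a hedgehog-pathway factor 224 kb away, which fell by 5.53 on the log2 scale, from 55.9 to 1.21 CPM. KANK4, next to L1TD1, rose from 0.498 to 6.96 CPM. High and low genes were thus found next to factors of either direction.

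Genes with the most similar pattern over the 6 libraries were sought for the 2 factors that rose most and the 2 that fell most, by Euclidean distance of centred log2 CPM among names with a mean of at least 5 CPM. Nearest to ZFP42 were KLF4 (distance 0.42), ZNF534 (0.47) and ZNF841 (0.47). TBX3 had ZFP28 (0.67), GPX2 (0.76) and HOXD13 (0.77), at larger distances. In primed EOS, TBX3 was at 0.0606 CPM and ZFP28 and HOXD13 were at 0. These distances therefore depend on counting error and on the 0.05 CPM added before the log. POU3F1 had MYLK (0.26), ADAMTS7 (0.27) and PREX1 (0.32), and FOXD3 had CHRNA5 (0.26), KIF5C (0.26) and ARHGAP35 (0.27). KLF4, itself a naive factor, stood at 312 and 287 CPM in AICAR, 294 in CA-p38 cells and 257 in VPA cells, and at 1.01 and 0.858 CPM in the primed libraries.

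Paralogs of the factors moved in both directions. Of 22 paralogs tested (of 23 listed), 8 rose, 8 fell and 6 did not pass, with a median log2 fold change of 0.07 against 0.11 over all names. SALL1 and SALL2 fell far more than SALL4, by 4.04 and 5.49 on the log2 scale (edgeR adjusted p = 8.35e-09 and 9.23e-12), SALL2 from 378 ± 31.6 CPM (SD, n = 2) to 8.4 ± 0.704 CPM (SD, n = 4). SALL3 fell by 0.59 (edgeR adjusted p = 0.0183), about as much as SALL4. YY1, the relative of ZFP42, was at 174 ± 19.9 CPM (SD, n = 2) in the primed state and at 137 ± 11.5 CPM (SD, n = 4) in the naive state, a fall by 0.35 (edgeR adjusted p = 0.0196). TFCP2 did not pass (log2 fold change -0.25; edgeR adjusted p = 0.0987), and UBP1, also of the CP2 group, fell by 0.32 (edgeR adjusted p = 0.0357).

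Within the T-box group, TBX2 rose from 0.0202 to 1.67 CPM while TBX5, the neighbour of TBX3, fell from 1.72 to 0.0339 CPM, all of them low levels. OTX1 fell with OTX2, by 3.07 on the log2 scale (edgeR adjusted p = 9.98e-05), whereas CRX, the third OTX gene, rose from 2.22 to 5.89 CPM (log2 fold change 1.41; edgeR adjusted p = 0.000516). POU3F3 rose at a low level, from 0.254 to 1.90 CPM, and POU3F2 was at 0.569 CPM in primed and 0.444 CPM in naive libraries (edgeR adjusted p = 0.667). FOXD4 had too few counts to be tested.

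Other factors of the naive network gave 8 genes that rose and 2 that fell of 10 tested, with a median log2 fold change of 1.94. Over all names tested, 26% rose and 27% fell. Of the 8, 7 had every naive library above both primed libraries. NR5A2 (edgeR adjusted p = 0.0437) did not, with 6.07 CPM in naive VPA and 6.89 CPM in primed CA-p38 EOS. KLF4 rose by 8.26, KLF5 by 6.85 and NANOG by 1.33 on the log2 scale, NANOG from 91.3 ± 9.34 CPM (SD, n = 2) to 229 ± 8.70 CPM (SD, n = 4). KLF17 rose from 3 and 0 reads in the primed libraries to 22.6 ± 7.32 CPM (SD, n = 4). ESRRB, a naive factor of mouse cells, was under 1 CPM in all libraries and fell, as did GBX2, from 37.0 to 7.37 CPM. Of 12 other formative and primed factors, 11 fell and 1 rose, with a median of -4.37. ETV1, a target of FGF signalling, fell from 92.5 to 0.410 CPM, TCF7L1, a repressor of the Wnt pathway, from 200.1 to 12.1 CPM, and SOX11 from 93.7 to 2.24 CPM; LEF1 rose from 0.0917 to 0.676 CPM. The log2 fold changes of -7.80 for ETV1, -4.05 for TCF7L1 and -5.39 for SOX11 were larger in size than those of OTX2, FOXD3 and POU3F1, without a test of that difference.

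Of the 5 formative effectors, 3 fell, 1 rose and 1 did not pass (median -0.34). DNMT3B, a de novo DNA methyltransferase, fell from 2897 ± 464 CPM (SD, n = 2) to 749.9 ± 63.5 CPM (SD, n = 4), and FGF5, a formative marker in the mouse, was at 0.173 CPM in primed and 0.509 CPM in naive libraries (edgeR adjusted p = 0.0810). The core factor POU5F1 (OCT4) stood at 1678 ± 46.7 CPM (SD, n = 2) in the primed state and at 1540.4 ± 61.6 CPM (SD, n = 4) in the naive state and did not pass (log2 fold change -0.12; edgeR adjusted p = 0.224), while its partner SOX2 fell by 0.87 (edgeR adjusted p = 1.12e-05). Every naive value of POU5F1 (1472 to 1622 CPM) was nevertheless below both primed values (1645 and 1711 CPM).

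Markers of other cell types were read beside these values. Of 8 trophectoderm and amnion markers 5 rose, none fell and 3 did not pass, and their summed level was 83.7 to 118 CPM in naive and 67.1 to 78.0 CPM in primed libraries, with GABRP at 62.9 to 96.2 CPM the main contributor and CGA reaching at most 0.322 CPM. TBX3 is also known from trophoblast. Of 6 hypoblast markers 1 rose (GATA4), 4 fell and 1 did not pass, with sums of 12.8 to 18.7 CPM in naive and 8.50 to 29 CPM in primed libraries. Of 6 mesendoderm markers 1 rose, 2 fell and 3 did not pass, with sums of 8.27 to 11.5 CPM and 6.56 to 19.0 CPM. Of 5 neural markers tested, none rose, 3 fell and 2 did not pass, with sums of 90.8 to 94.6 CPM and 441 to 522 CPM, mostly NES. Germ cells also express PRDM14, SALL4 and UTF1: of 5 germ cell markers tested 3 rose and 2 fell, with sums of 33.4 to 44.3 CPM and 6.54 to 9.38 CPM, mostly PRDM1 in the naive libraries only, while NANOS3 had no read in any naive library. Of 6 fibroblast markers 3 fell and 3 did not pass, with sums of 35.6 to 78.95 CPM in naive and 537 to 582 CPM in primed libraries, mostly COL1A1 and COL1A2 in the former and VIM in the latter. The part of these markers in the values of the 10 factors was not tested.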

How the data were processed

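PolyA-enriched RNA of 6 samples was made into libraries with a SMART-Seq Stranded kit and sequenced on a NovaSeq. The deposited values are read counts per Ensembl gene. The authors trimmed reads with Trim Galore 0.4.4 and cutadapt 1.15, aligned them with Bowtie2 to Ensembl GRCh38 cDNA and ncRNA, and counted reads with a mapping quality of at least 1. Counting reads against transcripts can split reads between near-identical genes, and use of strand in counting is not given in the sources used here. The authors also name voom and RSEM, whose output was not used here.

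Counts of identifiers with 1 gene name were summed, 26 spike-in features were left out, and 23 columns of other studies were not used. The test of naive against primed libraries used edgeR 4.0.16 (R 4.3.3; quasi-likelihood F test, TMM, filterByExpr, Benjamini-Hochberg over 26497 names, threshold 0.05). The code was tested on simulated data. CPM uses TMM-scaled totals; values per kilobase use canonical transcripts of GENCODE 44 (GRCh38). Differences from the own primed line add 0.5 counts; their 95% intervals are exact binomial and cover counting error only. Distances between patterns use log2(CPM + 0.05). Alternatives were edgeR with other scalings, filters, blocks or libraries, DESeq2 1.42.0 and limma 3.58.1. Libraries held 46823699 to 54277064 counts, so 0 reads allow up to 0.0641 CPM. The study gives the AICAR libraries as consecutive passages after the same length of induction. It does not say whether they came from the same conversion. The labels do not say whether libraries of a state are independent cultures, so p-values measure only the spread between libraries. AICAR 1 and AICAR 2 are the numbers in the labels.

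The 10 factors, the gene lists and the tests were chosen with earlier results of these data known. Named were all 10 factors, listed genes with a role in the text, features named after or overlapping a factor, the nearest tested coding genes on each side, and the 3 genes most like each of 4 factors.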

Additional observations from a re-analysis of the deposited data

Results flagged for a closer look

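TFCP2L1 had a naive library apart from the rest: the gap between VPA (103 CPM) and the next library (123 CPM, AICAR 1), as a share of the range of the 4 naive libraries on the log2 scale, was 0.886. Such a gap can arise by chance among 4 libraries, and 10 genes were examined. How often chance gives it was not computed, and VPA also differs from the other libraries in induction method. Without the VPA library the log2 fold change of TFCP2L1 was 4.68, against 4.63 with all libraries. This was the top of the range of 4.58 to 4.68 over the fits that left out 1 library.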

How the results depend on the processing

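All 10 factors kept their direction and stayed past the threshold with median-ratio factors, library totals, DESeq2, limma-voom, no filter, single identifiers, a block for the parental line, 1 sum of both AICAR libraries, and without each library. With at least 10 counts in every library, 9 of 9 factors tested passed, since TBX3 was removed by its 3 reads in primed EOS. Leaving out a library gave 10 of 10 factors each time, but without a primed library the spread comes from the naive libraries alone. The median log2 fold change of all names was 0.11, and 0.21 with library totals. Of the 40 differences from the own primed line none changed direction. A prior count of 2 moved 0 of them beyond counting error, library totals moved 9, and a reference averaged over the primed libraries moved 27. The parental line was the only pairing the labels give, and replicate numbers mark no pairs. Few reads in 1 state limit the folds of TBX3 (3 and 23 primed reads), ZFP42 (35 and 34 primed reads) and, less so, UTF1 and FOXD3.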
